A study of Homo sapiens with 4 samples.

Results

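The insulin-like growth factor axis was described through 10 genes of the 43714 in the count table: the ligand gene IGF2, its noncoding neighbour H19, the receptor genes IGF1R and IGF2R, the binding protein genes IGFBP3, IGFBP4, IGFBP5 and IGFBP6, and the adaptor genes IRS1 and IRS2. Each was found by matching its symbol to the gene ID of a row. The 10 genes were chosen by their roles and by values of the comparison described here, so their differences are given as a description, with no p-value.

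Insulin-like growth factors are secreted hormones that bind IGF1R, a receptor tyrosine kinase, which passes the signal through the adaptors IRS1 and IRS2 to the PI3K-AKT and MAPK pathways. IGF2R, also the cation-independent mannose 6-phosphate receptor, carries IGF2 to lysosomes. Binding proteins hold the hormones outside the cell, and proteases release them. IGF2 and H19 are a pair of imprinted genes on chromosome 11p15.5, IGF2 being expressed mainly from the paternal allele and H19 from the maternal one. The axis is much studied in breast cancer as a growth and survival signal.

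Total RNA was sequenced from a pair of lines made from MDA-MB-231, an established triple-negative breast cancer cell line with mesenchymal features. Both lines carry 7TGP, a plasmid in which 7 TCF sites, the DNA elements of Wnt signalling, drive EGFP, and both had passed through puromycin selection at 3 ug/mL and growth in 10% serum. After 8 rounds of cell sorting, the reporter-positive line (MDA-MB-2317TGP-POS) was over 80% EGFP-positive and the reporter-negative line (MDA-MB-2317TGP-NEG), which served as the control, was over 95% EGFP-negative. There were 2 libraries of each, all under the same batch label, made from 1 ug of RNA each. The labels do not say whether libraries of the same line are separate cultures, and p-values therefore measure only the spread between these libraries. With 1 line per reporter state, the reporter and other differences between the lines cannot be told apart. In bulk RNA, more cells expressing a gene and more RNA per cell cannot be told apart either.

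Total counts ran from 55894092 to 63034563 per library. Of 8 mesenchymal markers, 7 averaged at least 1 CPM (counts per 1000000 reads, with library sizes scaled by TMM), and the sum of the 8 was 5141 and 5071 CPM in the reporter-negative libraries against 3602 and 3909 CPM in the reporter-positive ones. By edgeR 2 of the 8 were called higher (CD44 and MSN) and 3 lower (VIM, ANXA1 and CAV1), beside 11.6% and 10.9% of all genes. VIM, the most abundant, went from 2669.6 ± 63.2 to 1299.7 ± 60.7 CPM. The sum of 10 fibroblast markers, a cell type known for IGF2 and IGFBP5 expression, overlapped between the lines at 14.7 to 16.1 and 15.04 to 17.0 CPM, with 3 of 10 markers averaging at least 1 CPM and none at 0 in all 4 libraries. Of these LUM was called higher (124 and 112 against 179 and 185 counts) and PDGFRB lower. For hepatic markers the sum was 4.98 and 6.98 CPM in the reporter-negative libraries against 3.71 and 3.38 CPM in the reporter-positive ones. SERPINA1, called lower (4.14 ± 1.12 to 1.18 ± 0.0707 CPM), made up most of that sum in the reporter-negative line, and AFP was called higher (0 and 3 against 12 and 13 counts). The part of any of these cell types in the results was not tested.

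Of the 10 genes, 9 passed the count filter, and H19 did not. By edgeR's quasi-likelihood test at a Benjamini-Hochberg adjusted p of 0.05, 3 of the 9 were called higher in the reporter-positive line (IGF2, IGFBP3 and IGFBP5), 1 lower (IGFBP6) and 5 neither. Over all 30952 genes tested, 22.4% were called, 11.6% higher and 10.9% lower. The 2 libraries of one line lay wholly above those of the other for 5 of the 9, beside 57.7% of all genes tested (28.2% with the reporter-positive libraries above and 29.5% with them below). The median log2 fold change of the 9 was -0.01, and that of all genes was 0.00. Because the genes were chosen with this contrast known, nothing is read from these counts. Of all calls, 51.5% were higher with TMM scaling and 36.0% with scaling by total count.

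**Figure D1:**
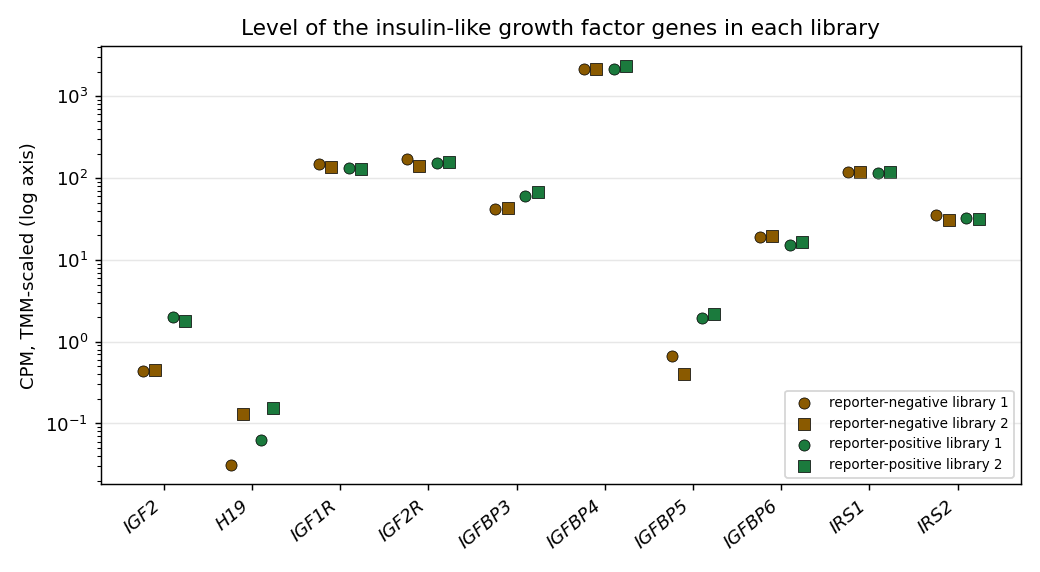
CPM (TMM-scaled, log axis) of the 10 insulin-like growth factor genes in each of the 4 libraries, 1 point per library, brown for reporter-negative and green for reporter-positive. IGF2 and IGFBP5 sit between 0.407 and 0.677 CPM in the reporter-negative libraries but between 1.77 and 2.16 CPM in the reporter-positive ones, while IGFBP4 is at 2145 CPM or more in every library.

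IGF2, the fetal growth hormone of the axis, had the largest log2 fold change of the 9 genes tested. The gene (ENSG00000167244) is listed at chr11:2129112-2149603 on the minus strand of GRCh38. Its raw counts were 28 and 28 in the reporter-negative libraries against 127 and 93 in the reporter-positive libraries. Both reporter-positive libraries thus lay far above both reporter-negative ones, with no overlap between the lines. In scaled units IGF2 was at 0.448 ± 0.0105 CPM (SD, n = 2) in the reporter-negative line and at 1.90 ± 0.175 CPM in the reporter-positive line, a 4.23-fold difference (log2 fold change 2.08, SE 0.27). The sums of 56 and 220 counts gave a ratio of 4.26 with a 95% exact binomial interval of 3.16 to 5.82, which covers counting error only. IGF2 was a low-level transcript in both lines, at 0.064 CPM per kb of exon in the reporter-negative line and 0.272 in the reporter-positive line. With the 4 libraries averaged, it stood at the 10.96th percentile of 16957 protein-coding genes tested per kb of exon.

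Reads at the IGF2 locus appear to be shared between table entries. The deposited counts behave as if they cover whole gene spans, with a read counted at every gene it overlaps. The counting tool is not stated, so this is inferred from genes that lie inside others. The entries that overlap IGF2 are given in turn. A longer entry also named IGF2 (ENSG00000284779, chr11:2129112-2158658) had 29, 33, 129 and 95 counts, in the order reporter-negative 1 and 2, reporter-positive 1 and 2. The readthrough gene INS-IGF2 (chr11:2132538-2161209) had 9, 12, 44 and 29, the noncoding AC132217.1 near the 3′ end of IGF2 had 6, 9, 26 and 20, and IGF2-AS, on the opposite strand, had 3, 4, 13 and 4. All of these entries were higher in both reporter-positive libraries except IGF2-AS, for which reporter-positive library 2 was level with reporter-negative library 2 in raw counts. Under such counting these are largely the same reads, so the entries are not taken as independent of one another.

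Under the same way of counting, subtracting entries located the reads. The longer IGF2 entry less the shorter one, which leaves the 9.06 kb at chr11:2149604-2158658, held 1 and 5 counts in the reporter-negative libraries against 2 and 2 in the reporter-positive ones. The shorter entry less INS-IGF2, a lower limit for the 3.43 kb at the 3′ end of IGF2 (chr11:2129112-2132537), held 19 and 16 counts against 83 and 64. The difference between the lines was therefore carried by the span of the shorter entry, and most of its counts lay at the 3′ end; the ratio of mean CPM there was 4.54. The counts of AC132217.1 and IGF2-AS, which lie inside IGF2, were also taken away. IGF2 was then 4.97-fold higher in the reporter-positive line (log2 fold change 2.31, SE 0.32). AC132217.1 is on the same strand as IGF2, so reads of IGF2 itself may have been removed. Both entries had lower ratios of mean CPM (3.30 and 2.52) than IGF2 (4.23), which by itself raises the fold change.

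**Figure D2:**
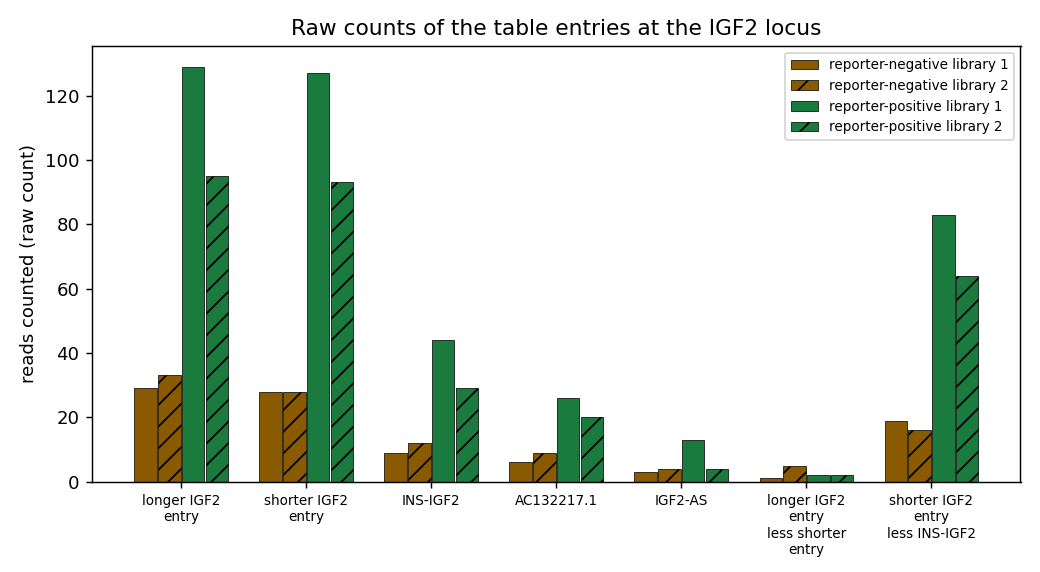
Raw counts in each library (bars, 1 per library) for the entries of the count table at the IGF2 locus and for 2 differences between entries. The reporter-positive bars stand above the reporter-negative ones for both IGF2 entries, INS-IGF2, AC132217.1 and the 3′ part, but not for the part of the longer entry outside the shorter one, where all 4 libraries hold 1 to 5 counts.

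H19, a long noncoding RNA that shares control elements with IGF2, was near the detection limit. At chr11:1995176-2001470 its raw counts were 2 and 8 in the reporter-negative libraries against 4 and 8 in the reporter-positive libraries. The lines overlapped, and the ratio of summed counts was 1.30 with an exact binomial interval of 0.515 to 3.36. This interval covers counting error only, and the reporter-negative libraries themselves held 2 and 8 counts. Whether H19 differed between the lines by the factor seen for IGF2 cannot be told from these counts. MIR675, the microRNA within H19, had 1 count in all, in reporter-positive library 2. The listed gene next to IGF2 on the side away from H19 is ASCL2, at 119 kb, with 2, 0, 2 and 1 counts, and the listed gene on the other side of H19 is LINC01219, at 1.51 kb, with 2 counts in every library. The nearest genes with a row in the count table on either side of IGF2 were thus barely detected in either line. Genes without a row, INS and TH among them, were not measured.

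A wider window placed IGF2 among its chromosomal neighbours. Within 1 Mb of IGF2, 39 genes that do not overlap it were tested: 1 was called higher and 6 lower, beside 11.6% and 10.9% of all genes, with a median log2 fold change of -0.15. The higher one, DUSP8 (a MAP kinase phosphatase gene), starts 578 kb downstream and had a log2 fold change of 1.35 (SE 0.21). Among the lower ones, CTSD (cathepsin D, a lysosomal protease), AC068580.4, PRADX and AC068580.1 start between 385 and 389 kb downstream. Their log2 fold changes were -0.88, -0.88, -0.85 and -0.92. AC068580.4 shares reads with CTSD, and PRADX and AC068580.1, which start close by, may do so too. Calls at this place may therefore not be independent of one another. IFITM10 (-0.77, SE 0.10) and BRSK2 (-1.08, SE 0.26) were the other lower genes. CTSD fell from 554 ± 38.9 to 300.4 ± 18.2 CPM (log2 fold change -0.88, edgeR adjusted p = 1.34e-07). The imprinted genes on the far side of ASCL2, CDKN1C (a cell cycle inhibitor; -0.33, SE 0.12) and KCNQ1OT1 (an antisense RNA; -0.10, SE 0.10), did not pass. All of these but CTSD were named after their values were seen.

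**Figure D3:**
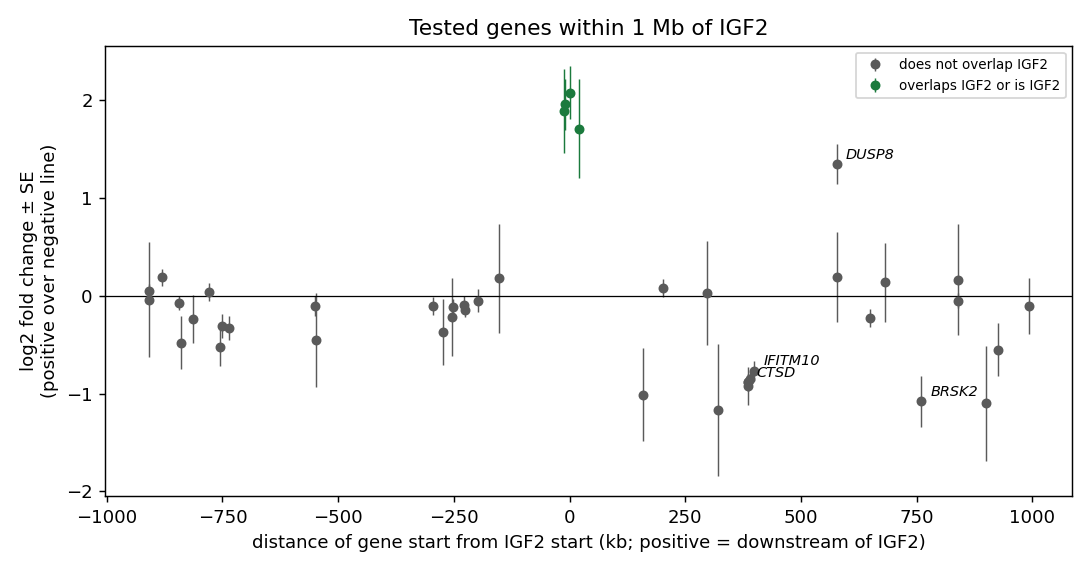
Log2 fold change with its SE (edgeR, reporter-positive over reporter-negative line) of the tested genes within 1 Mb of IGF2, by the distance of each gene's start from that of IGF2 in kb, positive on the H19 side. The 4 entries at the IGF2 locus lie between 1.71 and 2.08, and DUSP8 at 1.35 is the only other gene called higher.

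Both receptor genes were well expressed and close between the lines. IGF1R, the signalling receptor at chr15:98648539-98964530, had 150.1 and 138 CPM in the reporter-negative libraries against 133 and 129 CPM in the reporter-positive libraries. The reporter-positive libraries were below the others by a small margin (144 ± 8.71 against 131 ± 3.03 CPM, log2 fold change -0.14, SE 0.07), and IGF1R was not called, although it was called lower with total count scaling and without reporter-positive library 1. SYNM-AS1, an antisense gene that overlaps 10382 bases of IGF1R, held counts equal to 45.2% of those of IGF1R, and reads in the shared bases cannot be told apart. IGF2R at chr6:159969099-160113507 had 171 and 141 CPM against 154 and 156 CPM. Its lines overlapped (156 ± 20.5 and 155 ± 1.27 CPM, log2 fold change -0.01, SE 0.08), with the spread between the reporter-negative libraries wider than the difference.

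The binding proteins ran from among the most to among the least abundant protein-coding transcripts of these cells. IGFBP4, which binds the growth factors and is cut by the protease PAPPA, had 2170.2, 2145, 2165 and 2359 CPM (reporter-negative 1 and 2, reporter-positive 1 and 2), at the 99.97th percentile of protein-coding genes per kb of exon. Its lines overlapped (log2 fold change 0.07, SE 0.10). Summed over IGFBP1 to IGFBP7 per kb of exon, IGFBP4 made up 79.6% and 78.7% in the reporter-negative libraries against 83.7% and 84.0% in the reporter-positive ones, with IGFBP7 next at 17.5%, 18.4%, 13.5% and 13.2%. Binding protein transcripts were therefore dominated by IGFBP4 in every library.

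IGFBP5, a binding protein that also attaches to extracellular matrix, was the rarest of the 4. Its raw counts were 43 and 25 in the reporter-negative libraries against 122 and 113 in the reporter-positive libraries. The lines did not overlap, and the reporter-negative libraries differed from each other by more than the reporter-positive ones did. IGFBP5 went from 0.542 ± 0.191 to 2.05 ± 0.151 CPM, a 3.76-fold difference (log2 fold change 1.91, SE 0.27), and the sums of 68 and 235 counts gave a ratio of 3.75 (exact binomial interval 2.85 to 4.98). The log2 fold change was 2.33 without reporter-negative library 1 and 1.59 without reporter-negative library 2. The antisense gene AC007563.2 overlaps 1062 bases of IGFBP5 and had counts equal to 92.7% of those of IGFBP5. At 0.850 and 1.14 against 1.51 and 1.18 CPM its log2 fold change was 0.44 (edgeR adjusted p = 0.261).

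The upstream windows of IGFBP5 and IGFBP4 are printed because these genes are the rarest and the most abundant of the 4 binding proteins. The windows are the 250 bases before each start in RefSeq on GRCh38.p14, at chr2:216695550-216695799 (minus strand) for IGFBP5 and chr17:40443200-40443449 (plus strand) for IGFBP4, written 5′ to 3′ along the gene. Capitals mark matches, on either strand, to the TCF/LEF core CTTTG, the FOXO core GTAAACA, the TATA box TATAAA and the GC box GGGCGG.
IGFBP5: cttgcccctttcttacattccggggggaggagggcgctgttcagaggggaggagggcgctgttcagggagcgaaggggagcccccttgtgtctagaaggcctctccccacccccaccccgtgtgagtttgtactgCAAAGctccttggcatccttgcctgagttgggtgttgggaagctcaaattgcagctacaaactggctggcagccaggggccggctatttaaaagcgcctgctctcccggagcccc
IGFBP4: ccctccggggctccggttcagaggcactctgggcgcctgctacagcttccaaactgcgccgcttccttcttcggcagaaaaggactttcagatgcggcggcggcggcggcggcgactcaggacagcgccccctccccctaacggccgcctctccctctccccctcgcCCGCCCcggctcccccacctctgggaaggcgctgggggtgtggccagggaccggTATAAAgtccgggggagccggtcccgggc

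The IGFBP5 window held a single match, to the TCF/LEF core on the opposite strand, 115 to 111 bases before the start, and the IGFBP4 window held a TATA box 29 to 24 bases before the start and a GC box on the opposite strand 83 to 78 bases before it. Of 35116 RefSeq windows of this length, 42.1% held the TCF/LEF core, 2.98% the FOXO core, 10.7% the TATA box and 42.6% the GC box. The start windows of 9 of the 10 genes were matched; IGF2 was not. Among those 9, the TCF/LEF core also occurred before H19 and IGFBP6, the FOXO core before IGFBP6, and GC boxes before IGF1R, IGF2R, IGFBP3, IGFBP6, IRS1 and IRS2. A match of a few letters is a description of the sequence and not a binding site. GC content was 61.2% in the IGFBP5 window and 71.6% in the IGFBP4 window, with a median of 76.0% over the 9 genes and 58.0% over all windows.

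IGFBP3, the main carrier of these hormones in blood, was higher in the reporter-positive line by a smaller factor on a larger base. It had 41.4 and 43.6 CPM in the reporter-negative libraries against 59.9 and 68.1 CPM in the reporter-positive libraries. The lines did not overlap (42.5 ± 1.53 against 64.0 ± 5.81 CPM), a 1.504-fold difference (log2 fold change 0.59, SE 0.08). IGFBP6, which prefers IGF2 over IGF1, went the other way, with 19.2 and 19.5 CPM against 15.4 and 16.3 CPM. Both reporter-positive libraries were below both others (log2 fold change -0.29, SE 0.08). IGFBP6 was not called by DESeq2, nor when either reporter-negative library was left out. IGFBP3 (chr7:45912245-45921874), IGFBP4 (chr17:40443461-40457731) and IGFBP6 (chr12:53097436-53102345) overlap no other listed gene, and IGFBP5 lies at chr2:216672105-216695525.

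Adaptor genes were close between the lines. IRS1 at chr2:226731317-226799759, which couples the receptor to PI3K, had 118, 118, 115 and 119 CPM, with overlapping lines and a log2 fold change of -0.01 (SE 0.07). IRS2 at chr13:109752698-109786568 had 35.3, 30.4, 32.9 and 31.7 CPM, with a log2 fold change of -0.03 (SE 0.08). For both, the lines differed by less than the spread between libraries. AL162497.1, an antisense gene, overlaps 738 bases of IRS2 and had counts equal to 17.8% of those of IRS2.

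Compared per kb of exon, the 10 genes covered a wide range of levels. IGFBP4 came first at 975 to 1072 CPM per kb. IGFBP6, IRS1, IGFBP3, IGF1R and IGF2R followed, each overlapping the next in its range over the 4 libraries, between 7.93 and 14.9 CPM per kb in all. IRS2 stood alone at 3.74 to 4.33 CPM per kb, and then came IGFBP5 (0.0632 to 0.335) and IGF2 (0.0632 to 0.290), which overlapped each other. H19 was lowest at 0.0109 to 0.0527 CPM per kb. Reads in introns appear to be counted too, and the order depended on the length used. Per kb of gene span, IGFBP4 and H19 kept their ranks and the other 8 genes did not.

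Other genes of the pathway were taken from lists by role. Of 112 genes in 7 lists, 106 were tested: 14 rose (INS-IGF2, which shares its reads with IGF2, among them), 22 fell and 70 did not pass, so that 34.0% passed beside 22.4% of all genes, with a median log2 fold change of -0.03. Leaving out reporter-negative library 1 left 7 higher and 13 lower, leaving out reporter-negative library 2 left 8 and 12, and leaving out reporter-positive library 1 gave 25 and 28. The lists were drawn up with earlier results of these data known, and a higher share than the background is not a test of them.

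Of 5 other ligand and receptor genes tested, the only call (20%, beside 22.4% of all genes) was INS-IGF2, higher at 0.627 ± 0.104 than at 0.169 ± 0.0379 CPM. Its reads are shared with IGF2, so it adds nothing to IGF2 and is given with no p-value. IGF1, the other ligand, had 1.05 ± 0.432 and 0.870 ± 0.0376 CPM (edgeR adjusted p = 0.62), and reads there are shared with HELLPAR. INSR, the insulin receptor, had 40.5 ± 0.282 and 36.3 ± 1.42 CPM (adjusted p = 0.14).

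Among 5 other binding protein genes 2 fell (40% called, beside 22.4% of all genes). IGFBP1, an insulin-regulated binding protein, had 19.3 and 20.8 CPM in the reporter-negative libraries against 12.4 and 12.8 CPM in the reporter-positive libraries, and fell by 0.67 on the log2 scale (SE 0.09, edgeR adjusted p = 6.28e-06). IGFBP7, which binds insulin-like growth factors weakly, fell from 429 ± 13.7 to 316 ± 13.4 CPM (adjusted p = 0.000282). POLR2B overlaps IGFBP7 and had counts equal to 57.0% of those of IGFBP7. How many reads they share was not measured. The IGFBP7 call was lost without reporter-negative library 2 (log2 fold change -0.41). IGFBP1 lies next to IGFBP3 on chromosome 7, and these neighbouring genes differed between the lines in opposite directions.

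The proteases that cut binding proteins, and their inhibitors, gave 4 rises and no fall among 7 genes tested (57.1%, beside 22.4% of all genes). Their median log2 fold change was 0.38. PAPPA2, a protease of IGFBP3 and IGFBP5, had 4.55 and 4.90 CPM in the reporter-negative libraries against 10.8 and 11.03 CPM in the reporter-positive libraries, a 2.31-fold rise (edgeR adjusted p = 1.3e-07). The stanniocalcins STC1 and STC2, which inhibit the pappalysins, rose too. STC1 went from 183 ± 5.44 to 292 ± 14.97 CPM (1.59-fold, adjusted p = 1.13e-06), and STC2 from 0.754 ± 0.131 to 1.56 ± 0.0710 CPM (2.07-fold, adjusted p = 0.00494). HTRA1, a secreted serine protease, rose 1.30-fold (adjusted p = 0.000717). Without reporter-negative library 1 the adjusted p of STC2 was 0.0563, and without reporter-negative library 2 that of HTRA1 was 0.121. PAPPA itself, the protease of IGFBP4, had 66.5 ± 3.10 and 71.1 ± 0.373 CPM and did not pass (adjusted p = 0.392).

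**Figure D4:**
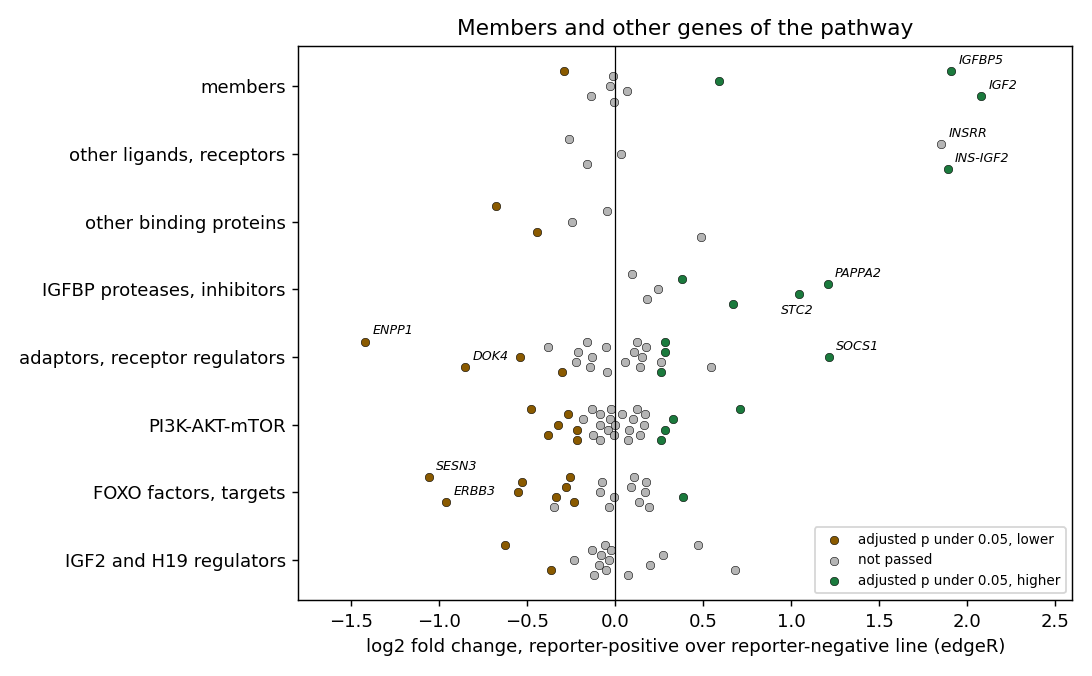
Log2 fold change (edgeR, reporter-positive over reporter-negative line) of the 9 tested members and of the tested genes of 7 other pathway lists, 1 point per gene, brown for called lower, green for called higher and grey for neither; vertical offsets within a row only separate the points. IGF2 and IGFBP5 lie at 2.08 and 1.91, PAPPA2 at 1.21 and ENPP1, the lowest, at -1.42.

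Adaptors and regulators of the receptor gave 4 rises and 4 falls among 24 tested (33.3%, beside 22.4% of all genes, median 0.00). ENPP1, a membrane pyrophosphatase that inhibits the insulin receptor, had the largest change: 694 and 693 CPM in the reporter-negative libraries against 246 and 273 CPM in the reporter-positive libraries, a log2 fold change of -1.42 (SE 0.09, edgeR adjusted p = 1.09e-10). The cytokine signalling suppressors moved apart. SOCS3 fell from 31.9 ± 0.665 to 21.97 ± 2.05 CPM (adjusted p = 4.34e-05), and SOCS1 rose from 0.832 ± 0.0710 to 1.93 ± 0.0353 CPM (adjusted p = 0.000647), with RMI2 overlapping SOCS1 at 834% of its counts. DOK4, a docking protein of the insulin receptor, fell from 9.52 ± 0.116 to 5.28 ± 0.122 CPM (adjusted p = 1.3e-05), and shares reads with the more abundant POLR2C.

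Among 29 PI3K-AKT-mTOR genes 4 rose and 6 fell (34.5%, beside 22.4% of all genes), with a median of -0.02. RHEB, the GTPase that activates mTORC1, rose from 33.1 ± 0.921 to 54.1 ± 3.35 CPM (1.63-fold, edgeR adjusted p = 4.94e-07). TSC1, whose product with TSC2 switches RHEB off, fell from 60.9 ± 3.44 to 43.7 ± 2.44 CPM (adjusted p = 6.55e-05). PIK3CD, a catalytic PI3K subunit, rose 1.26-fold (adjusted p = 0.00188). It shares reads with the more abundant CLSTN1, and its call was lost without reporter-negative library 1 (adjusted p = 0.0535).

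FOXO factors and their targets gave 1 rise and 8 falls among 20 tested (median -0.08). All of these calls were of targets, and no FOXO factor gene was called. AKT signalling, which holds FOXO activity down, was not measured. The 45% called stands beside 22.4% of all genes, in a list drawn up with earlier results known. SESN3, a stress-induced mTORC1 inhibitor, had 35.9 and 32.4 CPM against 15.8 and 17.0 CPM (log2 fold change -1.06, SE 0.08, edgeR adjusted p = 6.5e-09). ERBB3, a receptor partner in the EGFR family, fell from 10.7 ± 0.427 to 5.52 ± 0.178 CPM (adjusted p = 2.1e-06), and BCL6, a transcriptional repressor, from 47.6 ± 0.972 to 33.0 ± 0.767 CPM (adjusted p = 1.4e-05). FBXO32, an atrophy-related ubiquitin ligase gene, was the rise (1.31-fold, adjusted p = 0.000402). SESN3, ERBB3 and BCL6 share reads with LNCRNA-IUR, AC034102.2 and AC072022.1, and ERBB3 is also 1 of the luminal epithelial markers, whose sum was 911 and 952 CPM in the reporter-negative libraries against 691 and 747 CPM in the reporter-positive ones. Of those 12 markers 2 were called higher (FOXA1 and XBP1) and 5 lower, beside 11.6% and 10.9% of all genes. The part of these in the falls was not tested.

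Regulators of IGF2 and H19 gave no rise and 2 falls among 16 tested (12.5%, beside 22.4% of all genes, median -0.05). HMGA1, a chromatin protein, had 1059 and 1049 CPM in the reporter-negative libraries against 667 and 701 CPM in the reporter-positive ones (log2 fold change -0.62, SE 0.09, edgeR adjusted p = 2.11e-05). PLAGL2, of the PLAG family of zinc finger factors that activate IGF2, fell from 21.3 ± 0.308 to 16.5 ± 0.527 CPM (adjusted p = 0.00218). The IGF2 mRNA-binding proteins IGF2BP2 and IGF2BP3 had adjusted p-values of 0.667 and 0.865. CTCF, the insulator factor of the locus, had 48.4 ± 0.515 and 45.9 ± 2.58 CPM (adjusted p = 0.52).

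Genes with a profile like that of IGF2 were ranked by the root mean square distance of their centred log2(CPM + 0.1) values over the 4 libraries, among 16954 protein-coding genes tested that do not overlap IGF2 or H19. The nearest were TP63 (distance 0.0448), MTUS1 (0.0558), SLC22A7 (0.0651), LRRTM4 (0.0768) and TENM1 (0.0822). TP63, a transcription factor gene of the p53 family, had 5.21 and 5.29 CPM in the reporter-negative libraries against 19.6 and 18.9 CPM in the reporter-positive libraries. In all 5, both reporter-positive libraries lay above both others, by 3.41-fold (TENM1) to 5.48-fold (SLC22A7). This follows from how they were chosen and is no finding. Of all genes tested, 28.2% had both reporter-positive libraries above. PDGFRL, CRIP3 and STAG2 overlap MTUS1, SLC22A7 and TENM1 and share reads with them. For H19 the nearest were TMEM59L, MUC7, SIRPA, REG1A and ISM2, all with 6 to 38 counts per library, and at such counts the likeness is no finding.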

How the data were processed

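RNA of 2 reporter-positive and 2 reporter-negative libraries was compared. The authors deposited 1 table of raw counts by Ensembl gene, used unchanged. HISAT2, Bowtie2 and DESeq2 and the build hg19 appear, without roles, per the submitters' processing notes. Which tool counted the reads, on which annotation and with which strand setting, is not stated in these sources. GENCODE release 29 holds all 43714 IDs, and its GRCh38 positions are used. The counts behave as if they cover whole gene spans. In 1358 of 1358 genes with at least 100 counts lying inside another gene, the outer gene's count was at least as high. Gene pairs that share an exon were left out of this check, so it does not cover entries with shared exons. Libraries of the same line differed beyond sampling noise (chi-square divided by its degrees of freedom was 32.8 and 17.1).

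The test was edgeR's robust quasi-likelihood F test (edgeR 4.0.16, R 4.3.3) with TMM scaling, filterByExpr (minimum count 10, minimum total 15) and no term besides line. P-values were adjusted by Benjamini-Hochberg across all 30952 genes that passed the filter, with a threshold of 0.05. CPM (counts per 1000000 reads) use TMM-scaled library sizes, and values are mean ± SD over 2 libraries. Intervals of count ratios are exact (Clopper-Pearson) at 95% and cover counting error only. Total counts of 55894092 to 63034563 leave genes with few reads, IGF2 and IGFBP5 among them, with wide counting error.

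The members and lists were chosen with earlier results of these data known. Named genes are the 10 members, up to 4 genes with the smallest adjusted p per list, genes that overlap a member with at least 5% of its counts, the neighbours of IGF2 and H19, and the 5 genes nearest to each in profile; 1 gene that this rule names is not reported here. IGF1, INSR, PAPPA, IGF2BP2, IGF2BP3, CTCF, MIR675 and the marker genes were named outside this rule, after their values were seen. So were, as said beside them, SGCE, MAGI2 and genes of the IGF2 window. As alternatives, scaling was set to RLE or to total counts, the filter was dropped or set to 1 CPM in at least 2 libraries, DESeq2 1.42.0 or limma-voom (limma 3.58.1) replaced edgeR, the library number was added as a block, and each library was left out in turn. Counts of inner genes were also taken away from members, and span was used in place of exon length. Upstream windows are from RefSeq (GRCh38.p14).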

Additional observations from a re-analysis of the deposited data

How the results depend on the processing

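IGF2, IGFBP3 and IGFBP5 were called higher in the reporter-positive line under every alternative fit that kept all libraries. Over all 11 alternative fits, log2 fold changes were 1.98 to 2.16 for IGF2, 0.49 to 0.68 for IGFBP3 and 1.59 to 2.33 for IGFBP5. The genes were chosen with this contrast known and the fits reuse the same libraries, so repeated calls are no support for them. With the filter at 1 CPM in 2 libraries, IGF2 and IGFBP5 passed only through the reporter-positive libraries. The count of members called lower (1) was 0 with DESeq2, 2 with total count scaling and 0 to 2 when single libraries were left out. Total count scaling gave 2270 genes higher over all genes, in place of 3576, and lowered the median log2 fold change by 0.08. Leaving out single libraries gave 2333 to 4704 genes higher and 2025 to 4457 lower over all genes, and 7 to 25 higher and 12 to 28 lower among other pathway genes. Among the 11p15.5 neighbours, 1 gene was lower with DESeq2 and with limma-voom, 4 with total count scaling and 1 to 7 when single libraries were left out, in place of 2. Among other imprinted genes, 1 was higher with DESeq2, 0 with total count scaling and 0 to 4 when single libraries were left out, in place of 2. Per kb of span in place of exon, 2 of 10 members kept their rank. Whether library numbers pair the samples is not settled (correlation of deviations -0.02 over all genes tested and 0.15 over genes of at least 10 CPM). With the number as a block, 4175 genes were higher and 4051 lower over all genes, the members stayed at 3 higher and 1 lower, and 4 of the 11p15.5 neighbours were lower. The causes of these shifts were not tested. With 2 libraries per line and 1 line per reporter state, the low counts of IGF2, IGFBP5 and H19 limit what can be said of them, and reads shared between overlapping genes cannot be assigned.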

Other observations

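Imprinted genes on other chromosomes were examined beside IGF2 and H19. Of 16 tested, 2 rose and 4 fell, so that 37.5% passed beside 22.4% of all genes, with a median log2 fold change of -0.09. The list was drawn up with earlier results known. The rises, named after their values were seen, were SGCE (1.197-fold, edgeR adjusted p = 0.0179), which shares reads with PEG10, and MAGI2 (1.28-fold, adjusted p = 0.0218), which shares reads with MAGI2-AS3. GNAS, the gene of the stimulatory G protein alpha subunit, had 406 and 404 CPM in the reporter-negative libraries and 292 and 312 CPM in the reporter-positive libraries (edgeR adjusted p = 0.00041, and 0.0515 without reporter-negative library 1). BLCAP fell from 60.2 ± 1.77 to 39.6 ± 4.79 CPM (adjusted p = 1.42e-05), and NNAT, which lies within it and shares its reads, from 5.17 ± 0.246 to 3.24 ± 0.531 CPM. L3MBTL1, a chromatin reader gene that shares reads with Z98752.3, fell from 19.9 ± 2.37 to 12.4 ± 0.791 CPM (adjusted p = 2.32e-05).

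In a list of 11p15.5 genes, 2 of 18 tested fell (11.1%, beside 10.9% of all genes) and none rose, with a median of -0.13. CTSD was the larger fall. OSBPL5, an oxysterol-binding protein gene, went from 22.5 ± 1.83 to 18.8 ± 1.56 CPM (edgeR adjusted p = 0.04), a call that was lost with DESeq2 (0.114), with limma-voom (0.0512), without reporter-negative library 1 (0.479) and without reporter-positive library 2 (0.121).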
